A study of Mus musculus with 3 samples.

Results

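Matricellular proteins are secreted into the extracellular matrix, where they act on cells and bind growth factors more than they bear load. The genes described here are 10 of the 25410 gene symbols in the deposited files, chosen by name: the thrombospondin genes Thbs1, Thbs2 and Thbs3, the tenascin gene Tnc, Sparc, and the CCN genes Cyr61, Ctgf, Nov, Wisp1 and Wisp2 (also called Ccn1, Ccn2, Ccn3, Ccn4 and Ccn5). Their levels come from RNA-seq, after removal of ribosomal RNA, of 3 libraries of IDG-SW3 cells, a mouse line that matures in culture from an osteoblast-like to an osteocyte-like state. All 3 libraries form 1 group, at day 35 of differentiation and after 24 h with 100 nM parathyroid hormone (PTH), and the design text calls them biological replicates. Vehicle-treated libraries were not analysed here, so the values give levels under PTH and not its effect. IDG-SW3 cells come from mice that carry an interferon-inducible, temperature-sensitive T antigen and a green fluorescent reporter under a Dmp1 promoter, and the line was differentiated at body temperature without interferon-gamma.

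Thrombospondins and tenascins are large oligomeric glycoproteins that loosen or tune cell adhesion. SPARC, or osteonectin, binds collagen and calcium and is among the main non-collagenous proteins of bone. CCN proteins are built from a shared series of modules that bind integrins, heparan sulphate and growth factors, and CCN5 lacks the last of these modules, the cysteine knot. Several CCN genes are targets of YAP and TAZ, transcriptional regulators that respond to cell shape and matrix stiffness.

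The libraries held 35195518, 37299517 and 45240005 counts in replicates 1, 2 and 3. The file names speak of RPKM, yet the values are whole numbers with totals far too large for that unit, and they were taken as counts. RPKM (counts per kilobase of transcript and per 1000000 counts of the library) was computed here from them. Every level below rests on that reading. Means carry their SD, with n = 3 libraries. Of 14 osteoblast and osteocyte markers, 9 were above 1 RPKM by edgeR's quasi-likelihood test, beside 43.2% of all genes tested. Col1a2 stood at 2946 ± 90.4 RPKM and Phex at 9.05 ± 0.94 RPKM. Of the same list, Pdpn stood at 155.7 ± 27.6 RPKM and Gja1 at 2986 ± 115 RPKM, both above 1 RPKM by that test. Some osteocyte markers had few counts. Dmp1 had 77, 115 and 6 counts and Sost 2, 0 and 0 counts in replicates 1, 2 and 3. Mepe had 20, 18 and 52 counts and Fgf23 11, 21 and 26. The test placed none of these above or below 1 RPKM. Markers of other cell types had summed levels, over the libraries, of 2.93 to 3.38 RPKM for 5 endothelial genes, 0.905 to 1.25 RPKM for 6 haematopoietic genes and 0.474 to 0.740 RPKM for 5 muscle genes. Summed levels were 12.1 to 18.7 RPKM for 5 adipocyte genes, 7.87 to 10.8 RPKM for 5 chondrocyte genes and 37.8 to 39.4 RPKM for 5 tendon and fibroblast genes. By the same test, 3 adipocyte, 2 chondrocyte, 4 tendon and fibroblast and 1 endothelial gene were above 1 RPKM. Of the haematopoietic and muscle genes, 0 were above it. Pecam1, Itgam and Plin1 were listed at 0 in all 3 libraries, and each has several rows in the files.

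Promoter sequences are shown as a description, and their relation to the levels was not tested. RefSeq windows on build GRCm38.p6 were found for 5 of the 10 genes: Thbs2, Thbs3, Tnc, Sparc and Cyr61. The 250 bases before the annotated start follow, 5′ to 3′ on the gene's strand, for the gene with the highest level (Sparc), the one with the lowest (Thbs3) and the one with the most motif matches (Cyr61). Capitals mark matches to the motifs searched.
Sparc, chr11:55420081-55420330 (-): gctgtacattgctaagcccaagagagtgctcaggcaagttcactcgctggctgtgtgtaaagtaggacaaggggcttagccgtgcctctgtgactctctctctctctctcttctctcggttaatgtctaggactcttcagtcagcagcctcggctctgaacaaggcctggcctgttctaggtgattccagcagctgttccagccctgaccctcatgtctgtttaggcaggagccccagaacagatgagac
Thbs3, chr3:89214930-89215179 (+): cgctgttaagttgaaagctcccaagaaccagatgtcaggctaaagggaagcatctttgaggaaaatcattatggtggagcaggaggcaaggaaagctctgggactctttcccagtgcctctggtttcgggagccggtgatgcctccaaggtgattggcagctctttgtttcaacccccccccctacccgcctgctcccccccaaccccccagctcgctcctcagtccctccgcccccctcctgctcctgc
Cyr61, chr3:145649986-145650235 (-): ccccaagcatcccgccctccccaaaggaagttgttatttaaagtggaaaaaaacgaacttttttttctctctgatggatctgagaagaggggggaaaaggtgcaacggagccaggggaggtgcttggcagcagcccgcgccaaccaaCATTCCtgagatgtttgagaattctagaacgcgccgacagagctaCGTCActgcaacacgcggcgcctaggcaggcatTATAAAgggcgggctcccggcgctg
The motifs were TATAAA on the gene's strand, and, on both strands, GGAATG (bound by TEAD factors), TGACGTCA (the cyclic AMP response element, CRE), its shorter core TGACG, which the full element contains, TGANTCA (AP-1) and the CArG box by name. In the Cyr61 window, TATAAA began 25 bases before the start, the reverse complement of TGACG 58 bases before it and that of GGAATG 103 bases before it. Of all 32851 windows of the same length, 7.59% held TATAAA, 12.6% GGAATG, 17.8% TGACG, 1.55% TGACGTCA, 6.75% TGANTCA and 1.47% the CArG box. Both Tnc windows, which overlap, held the same TATAAA. The Sparc, Thbs2 and Thbs3 windows held none of these motifs, which says nothing about what binds there. GC content was 54.0% in the Sparc window, 58.8% in the Thbs3 window and 54.8% in the Cyr61 window, against a median of 52.4% over all windows. The windows not shown lay below that median, at 46.8% for Thbs2 and 44.8% and 51.2% for Tnc.

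All 10 genes were above 1 RPKM by edgeR's quasi-likelihood test (adjusted p under 0.05), where 43.2% of the 20975 genes tested were above it. Above 10 RPKM were 9 of the 10, against 20.6% of all genes tested, and 1, Thbs3, was below it, as were 74% of all genes tested. Above 100 RPKM were 6 of the 10, against 3.28% of all genes tested. These were Sparc, Thbs2, Wisp2, Wisp1, Tnc and Thbs1. The other 4, Nov, Cyr61, Ctgf and Thbs3, were below 100 RPKM, as were 96% of all genes tested. The median level of the 10 genes was 130.8 RPKM, beside 0.739 RPKM over all genes tested. Together they took 1.58 ± 0.0610% of all counts. By mean level among protein-coding genes, Thbs2 ranked 53rd, Wisp2 104th, Wisp1 246th, Tnc 435th, Thbs1 451st and Nov 682nd, and Cyr61, Ctgf and Thbs3 ranked 1296th, 3904th and 7233rd.

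**Figure D1:**
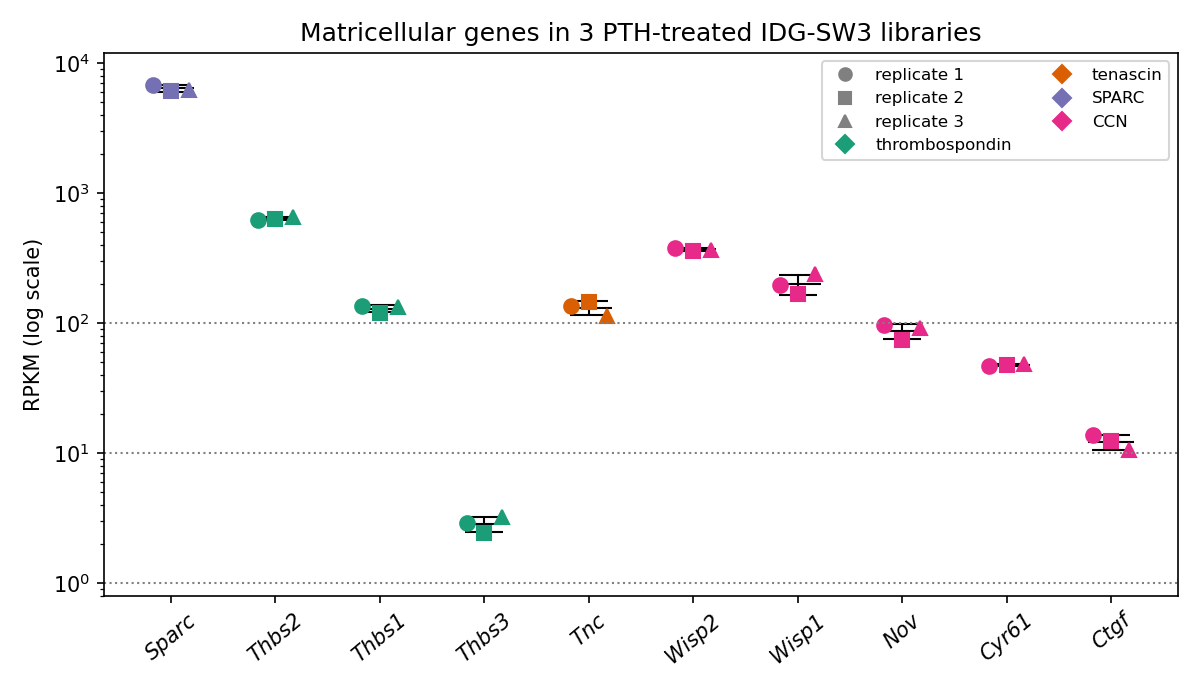
Level of each gene in RPKM on a log axis, with 1 symbol per library, colours for the gene families, and the mean with SD as black bars. Dotted lines mark 1, 10 and 100 RPKM; Sparc lies near 6409 RPKM, Thbs3 near 2.85 RPKM, and the other genes between 10.5 and 658 RPKM.

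Sparc stood far above the other genes. It had 6865, 6078 and 6284 RPKM in replicates 1, 2 and 3, a mean of 6409 ± 408 RPKM, and 0.938%, 0.830% and 0.858% of all counts. All 3 values lay above every value of the other genes. Sparc exceeded Thbs2, the next gene, 10.1-fold, with a range of 9.55 to 11.0 over the libraries, and took 79.8 ± 0.884% of the summed RPKM of the 10 genes. The length taken for Sparc was 1366 bases, the median of its annotated basic transcripts. With the longest, of 2300 bases, the level was 3806 ± 242 RPKM, still above every other gene.

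Of the thrombospondins, Thbs2 carried most of the signal. Thbs2 encodes a trimeric thrombospondin that limits blood vessel growth, and mice without it have thicker cortical bone. It had 623.6, 634.5 and 657.7 RPKM in replicates 1, 2 and 3. The values lay within 1.06-fold of each other. Thbs1 encodes its close relative, which activates latent TGF-beta and binds the receptors CD36 and CD47. It had 135.2, 120.9 and 132.4 RPKM, a mean of 129.5 ± 7.57 RPKM, so that no Thbs1 value reached any Thbs2 value. Its level was above 100 RPKM (log2 level over it 0.37, edgeR adjusted p = 1.17e-08). With GC content corrected that call was lost (log2 level 0.02, edgeR adjusted p = 1).

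Thbs3, of the pentameric thrombospondins, was the lowest of the 10 genes. It had 316, 281 and 449 counts, which gave 2.90, 2.44 and 3.21 RPKM in replicates 1, 2 and 3. The exact 95% Poisson intervals of these levels, which cover counting error only, were 2.59 to 3.24, 2.16 to 2.74 and 2.92 to 3.52 RPKM. The interval of replicate 2 did not reach the value of replicate 1 or replicate 3. DESeq2 did not place Thbs3 above 1 RPKM (adjusted p = 0.108). In the annotation Thbs3 overlaps Mtx1, on the opposite strand, over 11658 bases, and Mtx1 had 0, 8 and 23 counts. How the counting treated such shared stretches is not given in the sources used here, so both values are uncertain. Thbs1, Tnc and Ctgf also overlap opposite-strand genes, over 597, 67162 and 1667 bases. Those genes have no listed counts, and the levels of Thbs1, Tnc and Ctgf carry the same doubt. Over the 3 thrombospondins, Thbs2 took 82.8 ± 0.929% of the summed RPKM, Thbs1 16.8 ± 0.901% and Thbs3 0.369 ± 0.0429%.

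Tnc encodes tenascin-C, a hexameric protein of bone-forming surfaces, tendons and healing wounds. It had 136.8, 146.5 and 113.0 RPKM in replicates 1, 2 and 3. Replicate 3 was the lowest, 1.30-fold under replicate 2. The mean of 132 ± 17.3 RPKM was above 100 RPKM (log2 level over it 0.40, edgeR adjusted p = 1.34e-09), and with GC content corrected that call was lost (log2 level 0.11, edgeR adjusted p = 1). The length taken was 6966.5 bases; with the shortest basic transcript, of 2928 bases, the level was 314 ± 41.0 RPKM. Tnc and Thbs1 were the only neighbours in the order of levels whose ranges overlapped. Their log2 ratio, Tnc over Thbs1, was 0.02 ± 0.25, and Tnc was higher in 2 of 3 libraries (exact sign-flip permutation test, two-sided p = 0.75, where 3 libraries allow no p below 0.25). With the shortest transcripts the ratio was 1.27.

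Among the CCN genes, the levels ran in the order Wisp2, Wisp1, Nov, Cyr61 and Ctgf, and the ranges of these 5 genes did not overlap. Wisp2, the CCN gene whose product lacks the cysteine knot module, had 382.2, 358.6 and 368.0 RPKM in replicates 1, 2 and 3. Its mean was 369.6 ± 11.9 RPKM, and the libraries lay within 1.07-fold of each other. Wisp1, a Wnt target that favours osteoblast differentiation, had 196.4, 167.4 and 238.7 RPKM. Replicate 3 was the highest and replicate 2 the lowest, 1.43-fold apart. This was the widest range of the 10 genes. Wisp2 exceeded Wisp1 in all 3 libraries, with a log2 ratio of 0.89 ± 0.24 (exact sign-flip permutation test, p = 0.25, the smallest that 3 libraries allow).

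The place of Wisp1 depended on its length. The annotation gives it basic transcripts of 708 and 5097 bases, and the median taken here, 2902.5 bases, lies between them. With the longer, Wisp1 stood at 114 ± 20.4 RPKM, under Tnc and Thbs1 (log2 ratio of Wisp1 over Tnc −0.19, and over Thbs1 −0.19). With the shorter it stood at 823 ± 147 RPKM, over Wisp2 and Thbs2 (log2 ratio of Wisp2 over Wisp1 −1.14, and of Thbs2 over Wisp1 −0.35). The files do not show which transcript the counts belong to.

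Nov, which encodes a ligand of integrins and Notch1, had 96.1, 74.8 and 91.5 RPKM in replicates 1, 2 and 3. Replicate 2 was the lowest. The level was below 100 RPKM (log2 level over it −0.19, edgeR adjusted p = 0.0082), but not without replicate 2 (log2 −0.09, edgeR adjusted p = 0.235) or with DESeq2 (adjusted p = 0.111). With protein-coding counts as the library size it was above (log2 0.14, edgeR adjusted p = 0.0431).

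Cyr61 and Ctgf were the lowest of the listed CCN genes. Their products promote adhesion and matrix production, and both genes are among the best known YAP and TAZ targets. Cyr61 had 47.1, 47.8 and 48.8 RPKM in replicates 1, 2 and 3, and the 3 libraries lay within 1.04-fold of each other. Ctgf had 13.8, 12.4 and 10.5 RPKM, from 1185, 1130 and 1161 counts. Cyr61 exceeded Ctgf in all 3 libraries, by 3.42-fold to 4.65-fold. The level of Ctgf was above 10 RPKM (log2 level over it 0.29, edgeR adjusted p = 0.00649). The call was lost without replicate 1 (log2 0.20, edgeR adjusted p = 0.178) and with DESeq2 (adjusted p = 0.435), and with GC content corrected the direction turned (log2 −0.05, edgeR adjusted p = 1).

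The order of the CCN genes by share of their signal was the same in the 3 libraries, while the shares themselves moved. Wisp2 took 52.0%, 54.3% and 48.6% of the summed CCN RPKM in replicates 1, 2 and 3, and Wisp1 26.7%, 25.3% and 31.5%. In replicate 3, Wisp1 was at its highest share and Wisp2 at its lowest. Nov took 12.2 ± 0.878%, Cyr61 6.69 ± 0.463% and Ctgf 1.71 ± 0.282%. Taking the longest transcripts gave Wisp2 a share of 58.6 ± 2.35%, and taking the shortest gave it 27.8 ± 2.96% and Wisp1 61.1 ± 3.75%. The summed level of the 5 CCN genes was 718 ± 50.6 RPKM and that of the 3 thrombospondins 771 ± 19.5 RPKM, and with these lengths the CCN sum was the lower in all 3 libraries. With GC content corrected the order turned, at 680 ± 69.9 and 597 ± 13.0 RPKM, and likewise with the shortest transcripts, at 1341 ± 159 and 771 ± 19.5 RPKM.

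**Figure D2:**
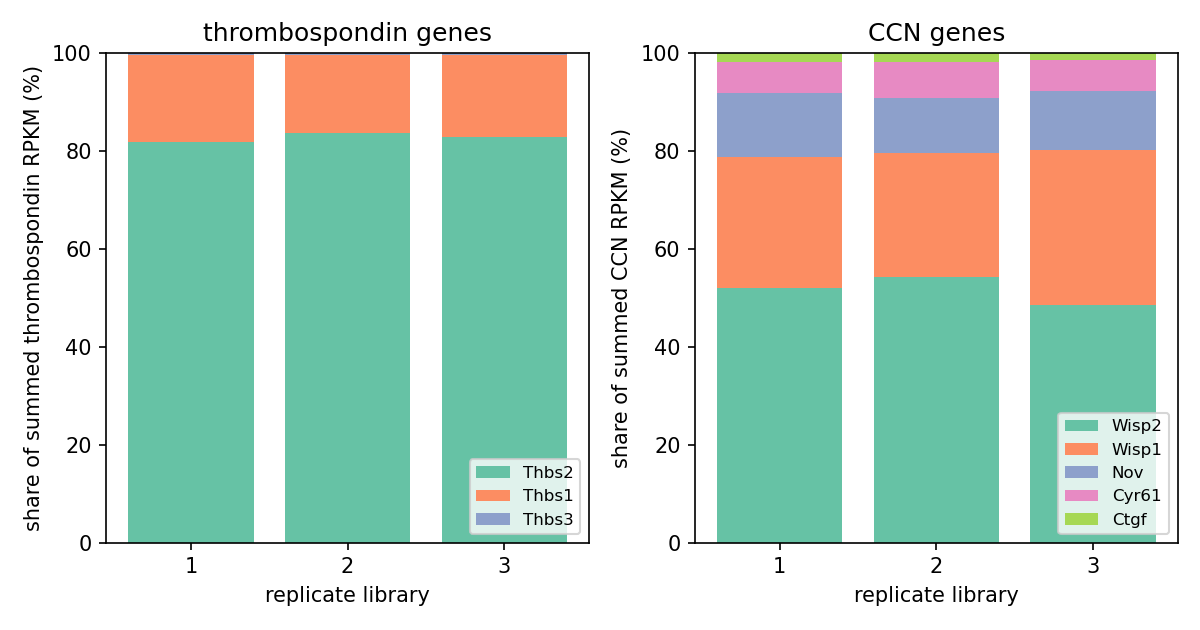
Share of each gene in the summed RPKM of the 3 thrombospondin genes (left) and of the 5 CCN genes (right), in percent, 1 bar per replicate library, with median transcript lengths. Thbs2 fills over 80% of the left bars in each library, and Wisp2 and Wisp1 fill most of the right bars.

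All 45 pairs of the 10 genes were set against each other within each library. In 44 pairs the same gene was higher in all 3 libraries and the ranges did not overlap. The exception was Tnc with Thbs1. No such count was made for pairs of other genes, so it is not read as particular to these 10 genes. The smallest steps between neighbours with separate ranges were those of Thbs1 over Nov, with a log2 ratio of 0.57 ± 0.11, of Wisp1 over Tnc, 0.60 ± 0.45, and of Thbs2 over Wisp2, 0.79 ± 0.07. With GC content corrected the last was 0.29. The ratio of Wisp1 over Tnc was 0.52, 0.19 and 1.08 in replicates 1, 2 and 3, with replicate 3 the highest. The steps from Cyr61 to Ctgf and from Ctgf to Thbs3 were larger, with log2 ratios of 1.97 ± 0.22 and 2.06 ± 0.34. None of these ratios can pass an exact test with 3 libraries, whose smallest p is 0.25.

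**Figure D3:**
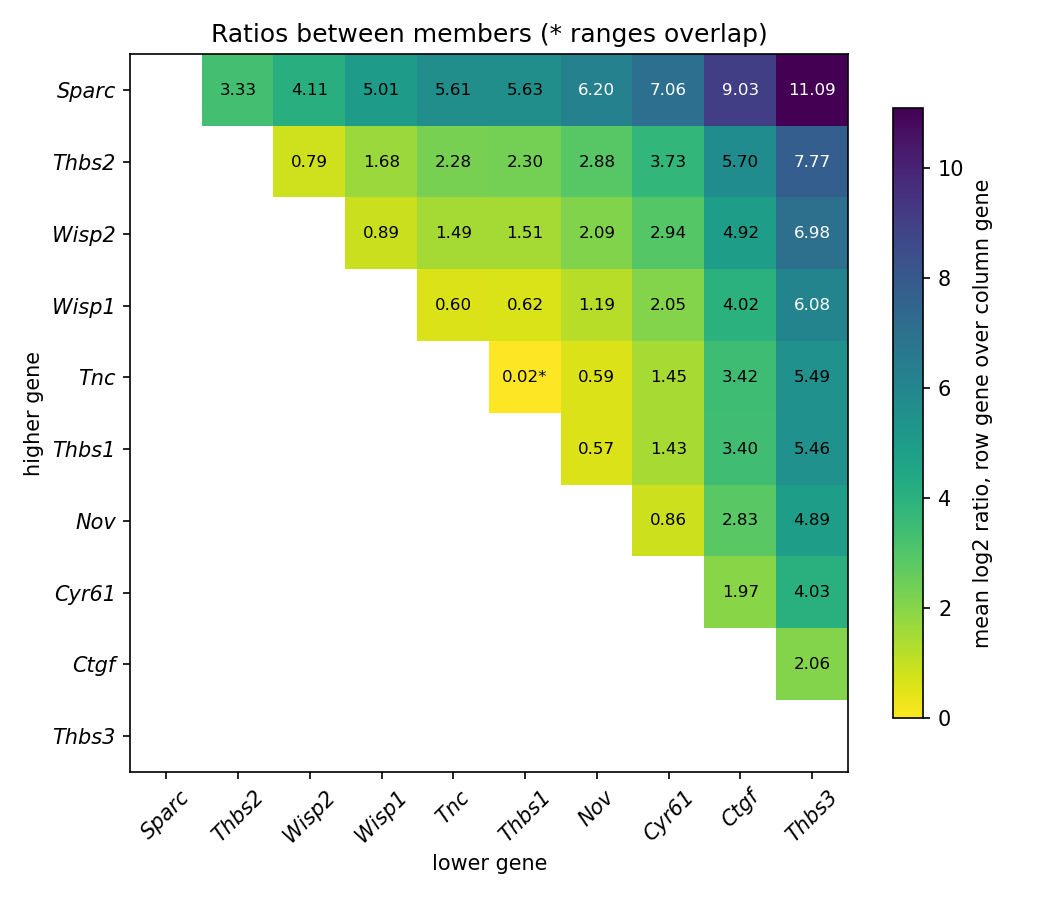
Mean log2 ratio of RPKM + 0.1 over 3 libraries for each of the 45 pairs, the row gene over the column gene, with genes ordered by mean level. The star marks Tnc over Thbs1, 0.02, the pair whose ranges overlap; the largest value is 11.09, for Sparc over Thbs3.

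The genes differed in how closely the libraries agreed. The SD of log2(RPKM + 0.1) over the libraries was 0.03 for Cyr61, 0.04 for Thbs2 and 0.05 for Wisp2, and 0.09 for both Thbs1 and Sparc. It was 0.19 for Nov, Tnc and Thbs3, 0.20 for Ctgf and 0.26 for Wisp1. Among genes with a mean level within 1.5-fold, the SD of Cyr61 stood at percentile 4.8 of 1064 genes, that of Thbs2 at percentile 6.7 of 89 and that of Wisp2 at percentile 15.1 of 166. Wisp1 stood at percentile 90.9 of 331, Nov at 80.1 of 679, Tnc at 78.3 of 484 and Ctgf at 69.6 of 1925. Thbs1 and Thbs3 stood at percentiles 33.6 and 36.3, and Sparc at 22.2 of only 9 genes. These percentiles describe the 3 libraries and carry no test.

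Of the 10 genes, 6 had their lowest value in replicate 2 (Thbs1, Thbs3, Sparc, Nov, Wisp1 and Wisp2), 2 in replicate 1 (Thbs2 and Cyr61) and 2 in replicate 3 (Tnc and Ctgf). The highest value lay in replicate 1 for 5 genes, in replicate 3 for 4 (Thbs2, Thbs3, Cyr61 and Wisp1) and in replicate 2 for Tnc. How all genes divide in this way was not counted, so these counts are not read as particular to the 10 genes. TMM factors, which rescale the library sizes and are not used in these levels, were 1.003, 0.981 and 1.016 in replicates 1, 2 and 3. The summed level of the 14 osteoblast and osteocyte markers was 9337, 9359 and 8582 RPKM in replicates 1, 2 and 3. Of these markers, 5, 4 and 5 had their highest value there. Single high genes weigh heavily in such sums: Ibsp alone had 2430, 2117 and 1608 RPKM. The 5 adipocyte markers summed to 12.1, 14.1 and 18.7 RPKM, of which Fabp4 alone had 7.04, 8.89 and 13.25 RPKM. Of the 4 above 0, 2 were highest in replicate 3. The part of cell makeup in the spread was not tested, and in such bulk samples fewer cells of a type and less RNA per cell cannot be told apart.

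**Figure D4:**
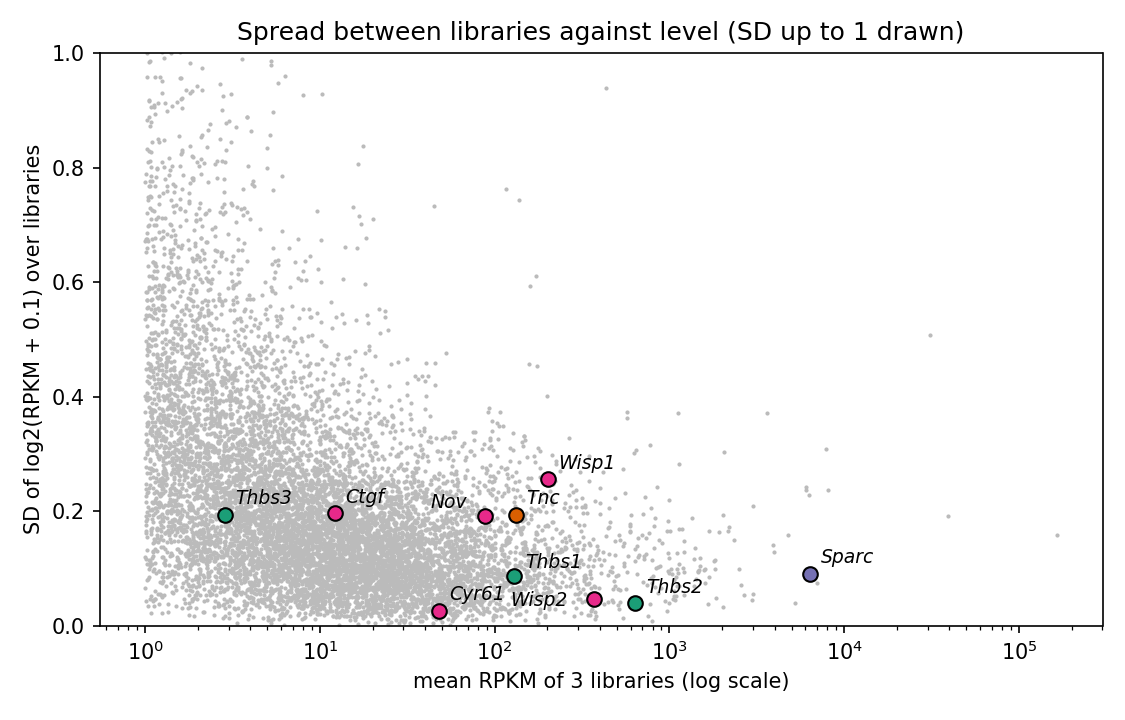
SD of log2(RPKM + 0.1) over the 3 libraries against mean RPKM on a log axis, for all genes of 1 RPKM or more in grey and the 10 genes in colour by family. Cyr61, Thbs2 and Wisp2 lie lowest of the 10 genes, at 0.03 to 0.05, and Wisp1 highest at 0.26; genes with an SD above 1 are not drawn.

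Other matricellular genes were uneven: 9 of 16 were above 1 RPKM and 3 below it, where 43.2% of all genes tested were above and 13.4% below. A further 2 were unresolved, 2 were listed at 0 and so not tested, and the median was 2.82 RPKM. Fstl1, a secreted glycoprotein related to SPARC, stood at 1093 ± 63.8 RPKM and Postn (periostin) at 1045 ± 33.9 RPKM. The bone tenascin gene Tnn had 268.9, 294.9 and 224.5 RPKM in replicates 1, 2 and 3, above Tnc in each library and, like Tnc, lowest in replicate 3. Comp, a cartilage and tendon thrombospondin, had 51.3, 60.0 and 38.4 RPKM and was lowest there too. Fstl1 and Postn were instead lowest in replicate 2, at 1020 and 1019 RPKM. How all genes divide in this way was not counted, so no shared pattern is read from it. The families' remaining genes were low. Thbs4, a thrombospondin of tendon and muscle, was below 1 RPKM with 1, 50 and 26 counts (edgeR adjusted p = 0.018), a call lost without replicate 1 (edgeR adjusted p = 0.0567) or replicate 2 (0.255). The tenascin genes Tnr, of the nervous system, and Tnxb, of skin and tendon, were below at 0.182 ± 0.0968 and 0.191 ± 0.00799 RPKM. Over all 5 related lists 8 genes were below 1 RPKM, 5 of them without replicate 1 or replicate 2, where Thbs4, Mkl2 and Tead3 were not called, and 1, Tead3, with DESeq2. Wisp3, the CCN gene outside the list above, had 3, 10 and 26 counts, at 0.218 ± 0.174 RPKM, and was unresolved. Smoc1 and Spock1, both relatives of Sparc, were listed at 0, and each has several rows in the files. Of protein-coding symbols, 31.8% of those with several rows but 2.67% of those with 1 row were at 0 in all libraries, so these zeros are not read as absence.

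Receptors for matricellular proteins stood at a median of 2.97 RPKM. The test placed 10 of 16 above 1 RPKM and 2 below it, beside 43.2% and 13.4% of all genes tested, left 3 unresolved, and could not be run on 1 listed at 0. Sdc4, the syndecan that CCN proteins bind, stood at 989 ± 145 RPKM and was lowest in replicate 3 at 825.9 RPKM. Itgb1, the beta chain of many matrix integrins, stood at 652 ± 39.9 RPKM, and Lrp1, the endocytic receptor that clears thrombospondins, at 522 ± 55.2 RPKM. Of the receptors of thrombospondin 1, Cd47 stood at 29.7 ± 2.60 RPKM, while Cd36 (5 rows) had 0, 0 and 9 counts and was unresolved. The members below were Stab1, the scavenger receptor of SPARC, at 0.165 ± 0.0487 RPKM, and Itga4, at 0.303 ± 0.00873 RPKM. Cacna2d1, a neuronal thrombospondin receptor with 5 rows, was listed at 0.

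Regulators of the CCN and thrombospondin genes stood at a median of 2.89 RPKM over the 16 measured. Of these, 8 were above 1 RPKM and 3 below it, beside 43.2% and 13.4% of all genes tested, while 1 was unresolved. The other 4 were listed at 0 and were not tested, and the shares over all genes tested leave such genes out. Tgfbr1, the type I receptor of TGF-beta, stood at 222 ± 4.54 RPKM, and the ligand genes Tgfb3 and Tgfb2 at 55.3 ± 2.77 and 32.6 ± 5.95 RPKM. The members below (Wwtr1, Tead3 and Mkl2) and those at 0 (Yap1, Tead1, Tead4 and Tgfbr2) all have several rows, so the levels of YAP, TAZ and most of their TEAD partners are uncertain in these files. Tead2, with 1 row, stood at 9.28 ± 0.284 RPKM. Of 8 other YAP target genes, the 7 measured were all above 1 RPKM, as were 43.2% of all genes tested, with a median of 13.0 RPKM. Amotl2 and Amotl1, which restrain YAP, stood at 67.8 ± 1.55 and 66.6 ± 3.76 RPKM, and the kinase gene Lats2 (2 rows) at 40.2 ± 4.13 RPKM.

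Proteases that cut matricellular proteins or their partners had 7 of 8 members above 1 RPKM, beside 43.2% of all genes tested, and Mmp9 was unresolved at 0.632 ± 0.284 RPKM. Their median was 133 RPKM. Mmp13 and Mmp2, a collagenase and a gelatinase, stood at 664 ± 72.1 and 285 ± 18.6 RPKM, and Adamts1, a metalloprotease that cleaves thrombospondins, at 201 ± 8.20 RPKM.

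**Figure D5:**
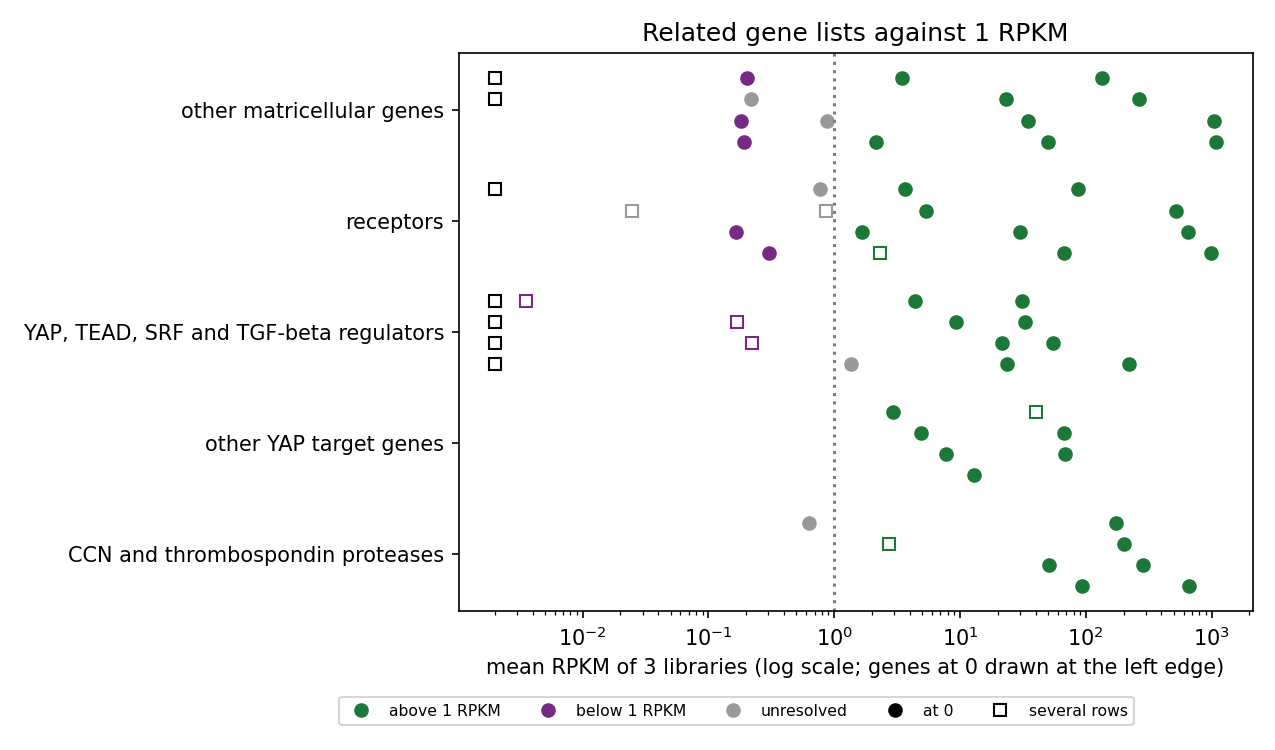
Mean RPKM of 3 libraries on a log axis for each measured gene of 5 related lists, coloured by edgeR's quasi-likelihood call against 1 RPKM, the dotted line. Open squares are genes with several rows in the files, and each gene at 0, drawn at the left edge, is one of these.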

How the data were processed

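Per the labels' protocols, RNA was depleted of ribosomal RNA and directional libraries were made with the ScriptSeq kit. Per the submitters' processing notes, the authors used TopHat and the mouse build mm9; for the counting tool, annotation and use of strand, no source used here gives a name. The deposited files hold whole numbers for 30795 rows, used as raw counts. Rows were summed per symbol (each of the 10 genes has 1 row), and 23012 symbols had a median transcript length from GENCODE M21 (GRCm38).

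Each level was tested two-sided against 1, 10 and 100 RPKM with edgeR 4.0.16 (R 4.3.3) by a quasi-likelihood F statistic of the single coefficient, with trended dispersion, robust estimation and a Poisson bound on p, over 20975 genes above 0 in at least 1 library, with Benjamini-Hochberg adjustment at 0.05. The test borrows its spread from all genes (median prior degrees of freedom 167), and a bias shared by all libraries is outside it. Ratios use log2(RPKM + 0.1). Alternatives used TMM factors, limma 3.58.1, DESeq2 1.42.0, a summed count of at least 10, the mean over rows, other lengths, a GC correction and each library left out; protein-coding library size was added after seeing the data. Pairs of libraries differed beyond counting noise (mean chi-square per gene 24.5 to 38.9).

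The genes and related lists were chosen with earlier results of these data known. Beside the 10 genes, the text names, of each related list, the 3 genes with the highest mean level and those below 1 RPKM or at 0; others (Comp, Wisp3, Cd47, Cd36, Tead2, Mmp9, Mtx1 and the marker genes) were chosen after their values were seen. Mkl1 and Ajuba had no matched length.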

Additional observations from a re-analysis of the deposited data

How the results depend on the processing

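The counts of the 10 genes above and below 1, 10 and 100 RPKM stayed within 1.5-fold under every alternative run. The largest fall was from 6 to 4 genes above 100 RPKM, with GC content corrected. Between 42 and 45 of the 45 pairs had 1 direction in all libraries used, and this count includes pairs that turned. By size, 36 pairs moved by over 1 SD under at least 1 setting (Wisp2 over Tnc was 1.49, and 0.24 with the shortest transcripts). Among the 10 genes, directions turned for Ctgf against 10 RPKM with GC content corrected (log2 −0.05). They also turned for Nov against 100 RPKM with protein-coding library sizes (0.14), and for 4 ratios of Wisp1 with other lengths. With the shortest transcripts these ratios were Thbs2 over Wisp1 (−0.35) and Wisp2 over Wisp1 (−1.14). With the longest they were Wisp1 over Tnc (−0.19) and over Thbs1 (−0.19). These 4 follow from the length alone. The turn of Nov follows from the smaller library sizes, which raise every level (Sparc over 100 RPKM went from log2 6.00 to 6.33). For Ctgf the cause was not tested. The ratio of Tnc over Thbs1, 0.02 with no shared direction, was −0.11 without replicate 2 and −0.01 with the longest transcripts. Of the related genes, 8 were below 1 RPKM, 10 with limma, 6 with the shortest transcripts and 1 with DESeq2. With 1 library left out 5 to 7 were below, 5 without replicate 1 or replicate 2. With the shortest transcripts Mkl2 turned from log2 −2.18 to 0.21 (edgeR adjusted p = 0.756). No paired analysis was possible because the libraries form 1 group. Depth limits Thbs3 most, at 281 to 449 counts.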
